A study of Mus musculus with 4 samples.

Results

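The 8 genes described here, *Fgf5*, *Otx2*, *Pou3f1*, *Zic2*, *Sox3*, *Grhl2*, *Sall2* and *Lin28b*, encode a growth factor, 6 transcription factors and an RNA-binding protein associated with the formative and primed epiblast. They were chosen by gene symbol from knowledge of the epiblast, with earlier results of these data known. All 8 were found among the 24421 entries of the deposited table. Polyadenylated RNA was sequenced from 4 cultures of the wild type mouse ESC line R1, with 1 library per culture. EpiLCs, the in vitro counterpart of the early post-implantation epiblast, were collected 72 h after induction, after a day in ESC medium lacking LIF and the remainder in medium with 20% KSR, 30 ng/ml FGF2 and 0.6 µM JAK inhibitor on gelatin. ESCs were grown in medium with 15% FBS and 1000 U/mL LIF. By the methods, the cells were freed of MEF feeders on gelatin and kept overnight with 1 µM PD0325901, an inhibitor of MEK, 3 µM CHIR99021, an inhibitor of GSK3, and LIF before ESC collection or EpiLC induction, although the label of the ESC library names LIF alone. The remaining cultures were ESCs kept for 48 h in medium with LIF and either 10 µM EED226, which binds EED and inhibits the histone H3K27 methyltransferase PRC2, or DMSO. Inhibitors of MEK and GSK3 are not named for these cultures, and removal of feeders from them is not stated. A single line and a single library per condition leave every difference below without a replicate check, so no p-value is given, and the 95% intervals cover counting error only.

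Naive pluripotent cells, the state of the pre-implantation epiblast that ESCs resemble, leave that state under FGF and ERK signaling and pass through a formative phase before they become primed for germ layer formation. OTX2 and POU3F1 are transcription factors that act during this exit, ZIC2, SOX3, GRHL2 and SALL2 are transcription factors found in the post-implantation epiblast and its derivatives, FGF5 is a secreted ligand long used as an epiblast marker, and LIN28B blocks the maturation of let-7 microRNAs. The MEK and GSK3 inhibitors hold cells in the naive state, and many developmental regulators that are silent in naive cells carry the PRC2 mark H3K27me3.

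The libraries held between 34440050 reads (EpiLC) and 47622558 reads (ESC). Levels are in TPM, a share of all transcripts that is scaled to gene length and can be compared between genes. As a check of the labels, 9 of 9 naive markers were at least 2-fold lower in EpiLCs than in ESCs, beside 11.6% of all genes. Their summed level was 326 TPM in EpiLCs, 2757 TPM in ESCs, 1634 TPM with EED226 and 1585 TPM with DMSO. Among genes with at least 1 TPM in all libraries, the median log2 ratio was 0.23 for EpiLC over ESC, 0.16 for DMSO over ESC and 0.08 for EED226 over DMSO. Longer genes were higher in EpiLC over ESC. Among the 13535 genes with at least 1 TPM in either library, the longest 10% had a median of 1.01 and the shortest 10% of -0.14. Fibroblast markers, 8 in all, summed to 10.9 TPM in EpiLCs, 33.9 TPM in ESCs, 59.6 TPM with EED226 and 57.6 TPM with DMSO. Of these 8, 4 were at least 2-fold lower in EpiLCs than in ESCs. Only 6 of the 8 reached the 1 TPM used for shares over all genes. Of those 6, 3 were lower, beside 11.6% of all genes. Among the lower ones was *Col1a1* (1.65 TPM in EpiLCs, 19.0 TPM in ESCs, 20.0 TPM with EED226 and 21.1 TPM with DMSO). *Dcn* was higher (3.21 TPM in EpiLCs and 0.122 TPM in ESCs). *Lum* was at 0.05 TPM or less in every library. Primitive endoderm markers (7) summed to 23.3 TPM in EpiLCs, 5.98 TPM in ESCs, 10.2 TPM with EED226 and 5.93 TPM with DMSO, and primitive streak markers (5) to 4.63, 5.79, 11.3 and 11.1 TPM in the same libraries. The part of these markers in the results below was not tested.

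As a set, the 8 regulators were lowest in ESCs. Their median level was 55.4 TPM in EpiLCs, 4.36 TPM in ESCs, 33.8 TPM with EED226 and 34.1 TPM with DMSO. The highest and the lowest member were 6.82-fold apart in EpiLCs, 328-fold in ESCs, 17.5-fold with EED226 and 14.2-fold with DMSO. The wide ESC range rests on *Fgf5*, and without it the members were 6.06-fold apart in EpiLCs, 17.6-fold in ESCs, 17.5-fold with EED226 and 14.2-fold with DMSO. In bulk RNA, fewer cells expressing a gene and less RNA per cell cannot be told apart. The ESC library was the lowest of the 4 for 8 of 8 genes, and the EpiLC library was the highest for 6. The shares of all genes in these orders were not computed. The median log2 ratio over all genes was itself positive, at 0.33 for EpiLC over ESC and 0.18 for DMSO over ESC. *Otx2* was highest with DMSO and *Lin28b* was highest with EED226.

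**Figure D1:**
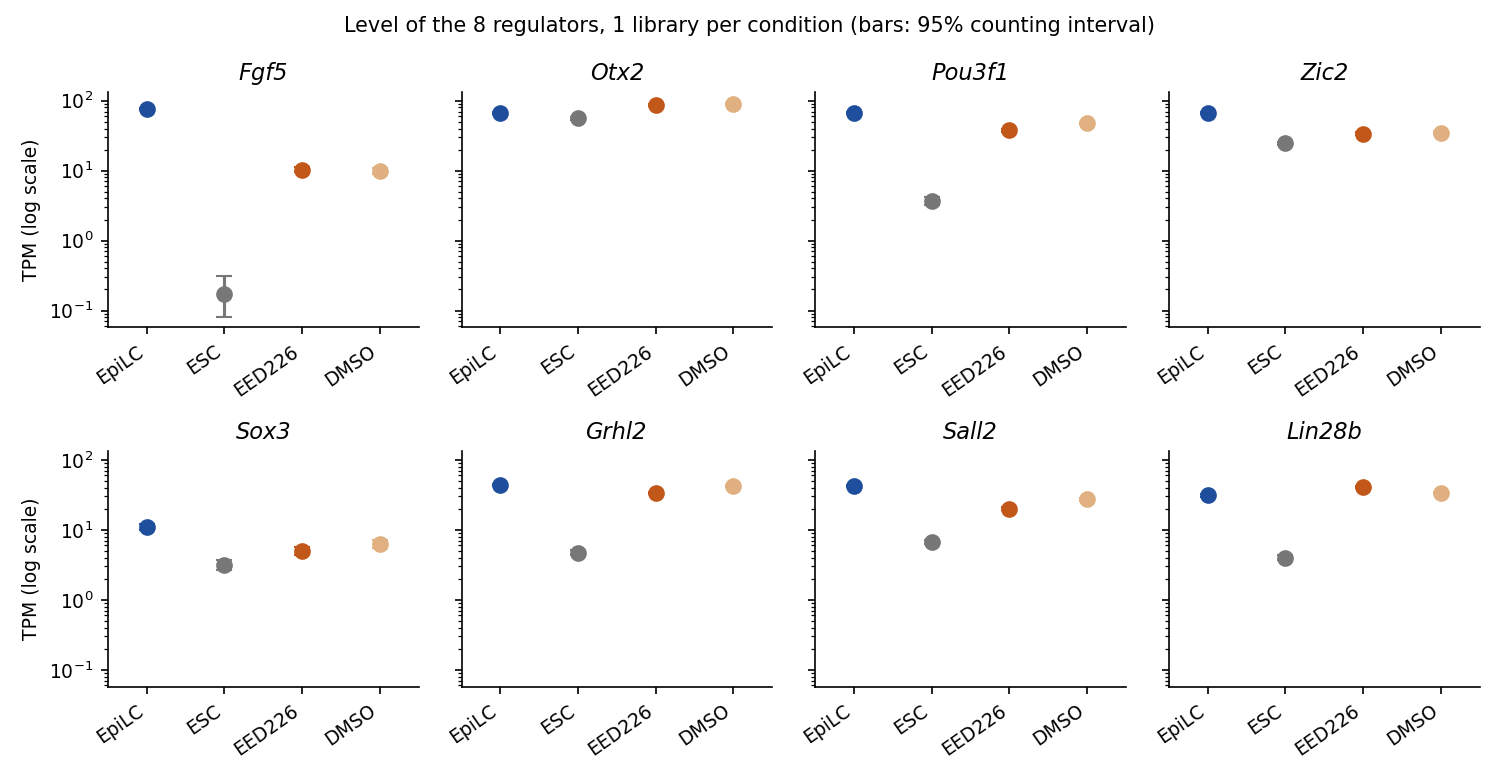
Level of each of the 8 regulators in the EpiLC, ESC, EED226 and DMSO libraries, in TPM on a log axis, with 95% counting intervals. The ESC points are the lowest for every gene, from 0.170 TPM for *Fgf5* to 55.6 TPM for *Otx2*.

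The FGF ligand *Fgf5* lies on the plus strand of chr5:98254184-98277030 (GRCm38, the build that mm10 names) and has 3 exons. The bases before its transcription start and before those of *Otx2* and *Lin28b* are shown because *Fgf5* and *Otx2* had the highest and the lowest EpiLC over ESC ratio of the set and *Lin28b* was the only member highest with EED226. They come from RefSeq (GRCm38.p6), run 5′ to 3′ on the strand of the gene, cover 250 bases before the start and have each CpG in capitals. The *Otx2* window is the outermost of 4 in the table, and the *Otx2* and *Lin28b* windows precede starts that lie inside the spans given for these genes below.
Fgf5, chr5:98253934-98254183, plus strand: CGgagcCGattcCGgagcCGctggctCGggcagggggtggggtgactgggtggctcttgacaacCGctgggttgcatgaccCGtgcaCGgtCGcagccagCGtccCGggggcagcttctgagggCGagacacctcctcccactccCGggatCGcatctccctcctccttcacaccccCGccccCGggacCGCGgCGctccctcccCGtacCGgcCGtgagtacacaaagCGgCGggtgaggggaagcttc
Otx2, chr14:48667645-48667894, minus strand: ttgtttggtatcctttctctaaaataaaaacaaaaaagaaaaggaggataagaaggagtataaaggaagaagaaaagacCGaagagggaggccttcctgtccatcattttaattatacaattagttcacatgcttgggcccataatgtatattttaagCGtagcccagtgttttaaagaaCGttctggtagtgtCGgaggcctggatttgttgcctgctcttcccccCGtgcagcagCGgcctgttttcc
Lin28b, chr10:45470202-45470451, minus strand: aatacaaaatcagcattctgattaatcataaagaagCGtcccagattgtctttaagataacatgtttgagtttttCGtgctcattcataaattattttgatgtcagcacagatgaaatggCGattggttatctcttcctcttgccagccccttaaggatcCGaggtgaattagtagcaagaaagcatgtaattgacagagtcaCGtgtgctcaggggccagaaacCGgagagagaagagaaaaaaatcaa
With the next 50 bases included, the *Fgf5* window held 29 CpGs at an observed to expected ratio of 0.83, higher than 81.2% of 27025 promoters in the table. The *Otx2* window shown held 6 CpGs at 0.46, and its other windows held 8 at 0.47, 16 at 0.89 (higher than 86.3% of promoters) and 11 at 0.54. The *Lin28b* window held 8 at 0.71, against a median of 0.39 over all promoters. Of the 8 genes, 4 matched the promoter table (*Fgf5*, *Otx2*, *Sall2* and *Lin28b*). The shares over all promoters below count 1 window per gene, so they are not matched to *Otx2* with 4 windows or *Sall2* with 2. TATAAA, searched on both strands, is held by 14.2% of all promoters and was found in windows of *Fgf5*, *Otx2* and *Sall2*. The *Fgf5* match lies 34 bases after the start, past the bases shown. AACCGG, a core of the motif of GRHL factors, is held by 6.80% of promoters and was found in the *Lin28b* window. TAATCC, a core of the OTX motif, is held by 7.15% of promoters and was found in 1 of the 4 windows of *Otx2*, not the one shown. The octamer part ATGCAAA (held by 4.60% of promoters), the SOX-type core ACAATG (12.8%) and the ETS-type core CGGAAG (17.2%) were found in no window of the 4 genes. A match or its absence describes letters in these windows and nothing more.

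*Fgf5* was nearly unread in ESCs and well expressed in EpiLCs. It had 75.5 TPM in EpiLCs (2887 reads), 0.170 TPM in ESCs (10 reads), 10.4 TPM with EED226 (532 reads) and 9.91 TPM with DMSO (437 reads). The EED226 and DMSO cultures stood between the EpiLC and ESC cultures. The ratio of EpiLC over ESC was 445 (95% counting interval 242 to 929). After adding 0.1 TPM its log2 ratio was 8.13, and 3 of 13535 genes with at least 1 TPM in either library had a higher one. Because its ESC level rests on 10 reads, the size of the ratio is loose. The study's PCR primers for *Fgf5* are given because they mark the part of the transcript that was probed besides sequencing. Both lie in the last exon, at chr5:98275356-98275371 and chr5:98275409-98275426, and delimit 71 bases.
Fgf5 forward primer: gcagcccacgggtcaa
Fgf5 reverse primer: cggttgctcggactgctt
The nearest relative, *Fgf4*, which is made by naive cells and drives ERK signaling in them, was lower in EpiLCs than in ESCs, with 59.8 TPM in EpiLCs, 266 TPM in ESCs, 130 TPM with EED226 and 134 TPM with DMSO. *Fgf4* thus was at 0.791 times the level of *Fgf5* in EpiLCs and at 1569 times its level in ESCs. *Fgf6*, expressed mainly in muscle, had 0.0532 TPM in EpiLCs and no reads elsewhere.

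Of the 4 receptors for FGF ligands, *Fgfr2* and *Fgfr4* were at least 2-fold higher in EpiLCs than in ESCs, beside 29.2% of all genes. *Fgfr2* had 19.1 TPM in EpiLCs, 1.96 TPM in ESCs, 10.1 TPM with EED226 and 8.48 TPM with DMSO, a ratio of 9.74 for EpiLC over ESC. *Fgfr4* had 4.96 TPM in EpiLCs and 1.53 TPM in ESCs. *Fgfr1*, the main receptor of ESCs, had the highest level of the 4 receptors in every library (95.4 TPM in EpiLCs and 70.4 TPM in ESCs), and its ratio fell below 1 when the trend with gene length was removed. *Fgfr3* stayed under 1 TPM in EpiLCs and ESCs, and had 1.04 TPM with EED226 and 0.555 TPM with DMSO. Its EED226 over DMSO ratio was 1.88 (1.30 to 2.76). It was the only receptor of the 4 past the 1.5-fold limit used for that comparison, which 5.26% of all genes passed upwards.

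*Otx2*, on the minus strand of chr14:48657677-48673819, was the exception of the set. It had 67.1 TPM in EpiLCs, 55.6 TPM in ESCs, 87.1 TPM with EED226 and 90.8 TPM with DMSO. EpiLCs were thus above ESCs but below both cultures kept in LIF without named inhibitors. The EpiLC over ESC ratio was 1.21 (1.15 to 1.27), or 0.27 on the log2 scale, against a median of 0.33 over all genes, and it was -0.098 with median-of-ratios scaling and 1.19 relative to *Gapdh*, while 52.1% of genes had a higher ratio. *Gapdh* itself had 2227 TPM in EpiLCs and 4211 TPM in ESCs. An overlapping gene on the opposite strand, *Otx2os1*, had 0.617 TPM in EpiLCs and 0.458 TPM in ESCs and shared 3.65% of the exonic bases of *Otx2*. An unlisted gene on the same strand shared 3.98%. These shares are of 4221 annotated exonic bases, while the deposited length of *Otx2* was 2677 bases. By PCR normalized to *Gapdh*, the study reported a striking rise of *Otx2* in EpiLCs, and it found more OTX2 protein there. The log2 ratio of 1.19 relative to *Gapdh* is the value here whose scaling is nearest to that PCR. The study's primers for *Otx2* fall in adjacent exons at chr14:48662517-48662541 and chr14:48661395-48661413, and both were found in 8 of its 11 annotated transcripts.
Otx2 forward primer: catgatgtcttatctaaagcaaccg
Otx2 reverse primer: gtcgagctgtgccctagta
The paralogs *Otx1* (0.209 TPM in EpiLCs and 0.241 TPM in ESCs) and *Crx*, a photoreceptor factor, contributed almost nothing, and *Otx2* made up 99.7% of the family's TPM in EpiLCs and 99.4% in ESCs.

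*Pou3f1*, a POU homeodomain factor encoded by a single exon at chr4:124656807-124660655, had the highest EpiLC over ESC ratio after *Fgf5*. Its level was 66.7 TPM in EpiLCs, 3.69 TPM in ESCs, 37.7 TPM with EED226 and 47.8 TPM with DMSO. All cultures other than ESCs were therefore high. The EpiLC over ESC ratio was 18.1 (15.9 to 20.6). *Pou3f2*, *Pou3f3* and *Pou3f4*, which act in the nervous system, were each under 1 TPM in every library, so *Pou3f1* made up 99.8% of the family's TPM in EpiLCs and 76.9% in ESCs. An unlisted antisense gene overlaps 8.57% of its exonic bases, and whether reads were counted by strand is not stated.

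*Zic2*, a zinc finger factor at chr14:122475435-122479852, had 67.0 TPM in EpiLCs, 24.8 TPM in ESCs, 33.9 TPM with EED226 and 34.6 TPM with DMSO. EpiLCs stood apart on the high side, with a ratio over ESC of 2.71 (2.55 to 2.87). Its divergent neighbour *Zic5*, whose start lies 9758 bases away on the opposite strand, had 26.4 TPM in EpiLCs, 3.80 TPM in ESCs, 12.2 TPM with EED226 and 13.4 TPM with DMSO. For both genes the EpiLC library was the highest and the ESC library the lowest. Counting error did not tell EED226 and DMSO apart, with ratios of 0.978 (0.918 to 1.04) for *Zic2* and 0.911 (0.811 to 1.02) for *Zic5*. The share of all genes in this order was not computed. *Zic1* and *Zic4* were under 1 TPM.

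*Sox3*, a SOXB1 factor encoded by a single exon at chrX:60891366-60893430, was the lowest of the set in EpiLCs. Its level was 11.1 TPM in EpiLCs (349 reads), 3.17 TPM in ESCs (154 reads), 4.99 TPM with EED226 and 6.38 TPM with DMSO. The ratio of EpiLC over ESC was 3.49 (2.88 to 4.25). *Sox2*, the family member that maintains pluripotency, was lower in EpiLCs (135 TPM) than in ESCs (310 TPM), so that *Sox2* exceeded *Sox3* by 12.2 times in EpiLCs and 97.9 times in ESCs. *Sox1*, a neural plate factor, had 3.98 TPM in EpiLCs and 6.05 TPM in ESCs, and its ratio exceeded 1 relative to *Gapdh*. *Sox3*, *Zic2* and *Pou3f1* also act in neural tissue, and a list of 8 neural genes summed to 128 TPM in EpiLCs, 177 TPM in ESCs, 244 TPM with EED226 and 209 TPM with DMSO. Its members did not move together. *Nes* (93.3 TPM in EpiLCs and 15.3 TPM in ESCs), *Map2* (3.57 and 0.477 TPM) and *Pax6* (5.77 and 1.85 TPM) were at least 2-fold higher in EpiLCs, beside 29.2% of all genes. Another 2 members were at least 2-fold lower, among them *Tubb3* (20.5 TPM in EpiLCs and 153 TPM in ESCs). Only 5 of the 8 reached the 1 TPM used for shares over all genes. Of those 5, 1 was lower, beside 11.6% of all genes. The median log2 ratio was 0.45 over the 8 and 1.59 over the 5, against 0.33 over all genes. The list's part in these results was not tested.

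*Grhl2*, a grainyhead-like factor that opens epithelial enhancers, lies at chr15:37233036-37363569. It had 44.2 TPM in EpiLCs, 4.72 TPM in ESCs, 33.7 TPM with EED226 and 42.0 TPM with DMSO. The DMSO and EpiLC levels were close, and the ESC level was the low one, with an EpiLC over ESC ratio of 9.36 (8.55 to 10.3). *Grhl3*, which acts in epidermis, had 10.2 TPM in EpiLCs and 26.9 TPM in ESCs, and *Grhl1* had 7.50 TPM and 4.31 TPM there. The share of *Grhl2* in the family's TPM was 71.4% in EpiLCs, 13.1% in ESCs, 38.9% with EED226 and 53.6% with DMSO. A list of 16 epithelial genes reported as GRHL2 targets had 15 members at least 2-fold higher in EpiLCs than in ESCs and a median log2 ratio of 2.71. The 1 TPM used for shares over all genes was reached by 15 of the 16. Of those 15, 14 were higher, with a median of 2.84, against 29.2% and 0.33 over all genes. In EpiLC over DMSO, 6 of the 16 were at least 2-fold higher and 2 lower, with a median of 0.69, against 19.2%, 8.76% and 0.15 over all genes. *Cldn7*, a tight junction claudin, had 144 TPM in EpiLCs and 2.34 TPM in ESCs. *Esrp1*, an epithelial splicing regulator, had 86.1 TPM in EpiLCs and 3.39 TPM in ESCs. *Krt18*, a simple-epithelium keratin, had 245 TPM in EpiLCs and 10.3 TPM in ESCs. The exception was the protease inhibitor *Spint1*, with 63.8 TPM in EpiLCs and 62.8 TPM in ESCs. Surface ectoderm genes, 4 in all and none above 1 TPM, summed to 0.652 TPM in EpiLCs and 0.0582 TPM in ESCs.

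*Sall2*, a zinc finger factor at chr14:52311172-52328762 that differs in role from the pluripotency factor *Sall4*, had 41.8 TPM in EpiLCs, 6.65 TPM in ESCs, 20.1 TPM with EED226 and 27.3 TPM with DMSO. The ratio of EpiLC over ESC was 6.29 (5.83 to 6.79). *Sall4* had 73.6 TPM in EpiLCs and 183 TPM in ESCs, which put it at 1.76 times the level of *Sall2* in EpiLCs and 27.6 times in ESCs. *Sall1* had 205 TPM in EpiLCs and 102 TPM in ESCs, and *Sall3* had 0.295 TPM in EpiLCs and 6.29 TPM in ESCs. Within the family, *Sall1* and *Sall2* thus passed 2-fold upwards in EpiLCs and *Sall3* and *Sall4* downwards. The log2 ratio of *Sall1* was 1.01, and it missed the limit at 0.78 with centring, 0.64 with median-of-ratios scaling and 0.35 with the length trend removed, while that of *Sall4* missed it at -0.40 relative to *Gapdh*.

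*Lin28b* at chr10:45376620-45486395 had 31.1 TPM in EpiLCs, 3.996 TPM in ESCs, 41.2 TPM with EED226 and 33.6 TPM with DMSO, and its EpiLC over ESC ratio was 7.78 (7.07 to 8.57). *Lin28a*, its paralog that recruits uridylating enzymes to the let-7 precursor, was far more abundant and varied less, with 391 TPM in EpiLCs, 240 TPM in ESCs, 378 TPM with EED226 and 380 TPM with DMSO. *Lin28a* was at 12.6 times the level of *Lin28b* in EpiLCs and 60.0 times in ESCs. Of 7 genes of microRNA processing and let-7 decay that were found, 4 were at least 2-fold higher in EpiLCs than in ESCs, beside 29.2% of all genes, with a median log2 ratio of 1.09. In EpiLC over DMSO, 1 of the 7 was, with a median of 0.40, against 19.2% and 0.15 over all genes. *Dicer1*, which cuts microRNA precursors, is among these 4 (61.1 TPM in EpiLCs and 28.7 TPM in ESCs), and its log2 ratio fell below 0 with the trend of gene length removed. The uridylating enzyme *Zcchc11* had 64.3 TPM in EpiLCs and 14.7 TPM in ESCs. Of 10 let-7 targets, 3 were at least 2-fold higher in EpiLCs than in ESCs, a share near the 29.2% of all genes, among them *Trim71* (61.5 TPM in EpiLCs and 20.2 TPM in ESCs), and the median was 0.58. MicroRNAs themselves were not measured.

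**Figure D2:**
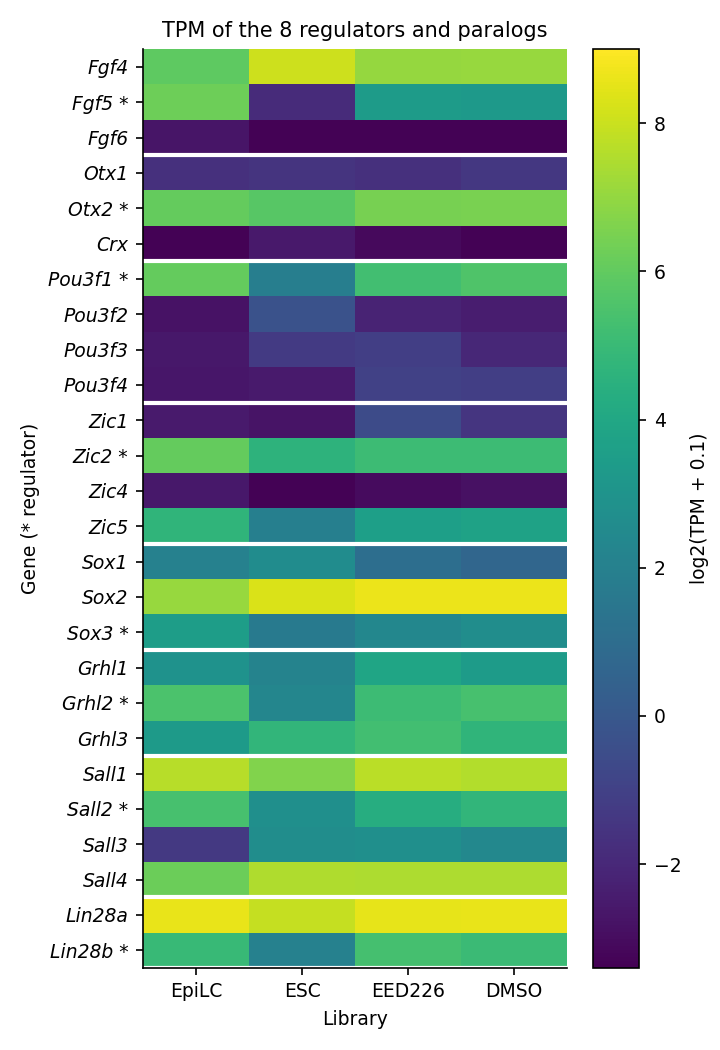
Levels of the 8 regulators (starred) and the paralogs reported here, as log2(TPM + 0.1) by color, in the EpiLC, ESC, EED226 and DMSO libraries. *Pou3f1* and *Otx2* are the dominant members of their families in EpiLCs, while *Sox3* and *Lin28b* are minor beside *Sox2* and *Lin28a*.

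In the comparison of EpiLCs with ESCs, 7 of the 8 genes passed 2-fold upwards and 0 downwards, while 29.2% of 13535 genes passed it upwards and 11.6% downwards. The counting intervals of 8 of 8 lay above 1, as did those of 56.6% of genes, with 31.7% below 1. With median-of-ratios scaling, 21.8% of all genes passed 2-fold upwards and 18.2% downwards, and relative to *Gapdh* these shares were 59.6% and 4.71%. The median log2 ratio of the 8 genes was 2.78 against 0.33 over all genes. These counts are a description, because the members and lists were chosen with earlier results of these data known. Of 22 other formative or primed genes, 13 were higher and 3 lower, with a median of 1.44. In EpiLC over DMSO, 5 were higher and 8 lower, with a median of -0.25, against 19.2%, 8.76% and 0.15 over all genes. *Dnmt3b*, a de novo DNA methyltransferase, had 446 TPM in EpiLCs and 134 TPM in ESCs. The tight junction gene *Cldn6*, which stands on the list of GRHL2 targets too, had 321 TPM in EpiLCs and 20.1 TPM in ESCs. The ephrin receptor *Epha4* was the lowest of the list, at 1.17 TPM in EpiLCs and 34.4 TPM in ESCs. The forkhead factor *Foxd3* (9.06 and 40.5 TPM) and the ETS factor *Etv4* (19.5 and 67.2 TPM) were also lower in EpiLCs than in ESCs.

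Set against the ESC culture, the DMSO culture differed in vehicle, in time, in the inhibitors named and in whether feeder removal is stated, and these cannot be told apart. Fibroblast markers summed to 57.6 TPM with DMSO and 33.9 TPM in ESCs. In DMSO over ESC, 5 of 8 genes were at least 2-fold higher, beside 15.6% higher and 9.02% lower among 12945 genes. With median-of-ratios scaling the shares over all genes were 11.9% and 11.8%. The ratios were 58.4 (31.4 to 123) for *Fgf5*, 12.96 for *Pou3f1*, 8.90 for *Grhl2*, 8.41 for *Lin28b* and 4.10 for *Sall2*. They were 2.01 (1.63 to 2.48) for *Sox3*, which missed the limit after 0.1 TPM was added, 1.63 for *Otx2* and 1.40 for *Zic2*. The 5 genes past the limit are thus the growth factor, the RNA-binding protein and 3 of the transcription factors. Counting intervals lay above 1 for 8 of 8, and over all genes for 52.5%, with 30.7% below 1. For 6 of 8 genes the DMSO level lay between the ESC and EpiLC levels, an order whose share over all genes was not computed.

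Set against DMSO instead, a comparison chosen after the values were seen, *Fgf5* alone of the 8 passed 2-fold upwards in EpiLCs, beside 19.2% of 13442 genes, with 8.76% past it downwards. The EpiLC and DMSO cultures differed in medium, vehicle, time and stated feeder removal, which cannot be told apart. Counting intervals lay above 1 for 6 members and below 1 for 2, against 49.5% and 34.6% of genes. The EpiLC over DMSO ratio was 7.62 (6.89 to 8.45) for *Fgf5*, 1.94 for *Zic2*, 1.74 for *Sox3*, 1.53 for *Sall2* and 1.40 for *Pou3f1*. *Grhl2* had a ratio of 1.05 (1.003 to 1.10). *Lin28b* (0.925) and *Otx2* (0.739) had ratios below 1. The EpiLC over ESC and DMSO over ESC ratios share the ESC library, and the EpiLC over DMSO ratios share a library with each.

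**Figure D3:**
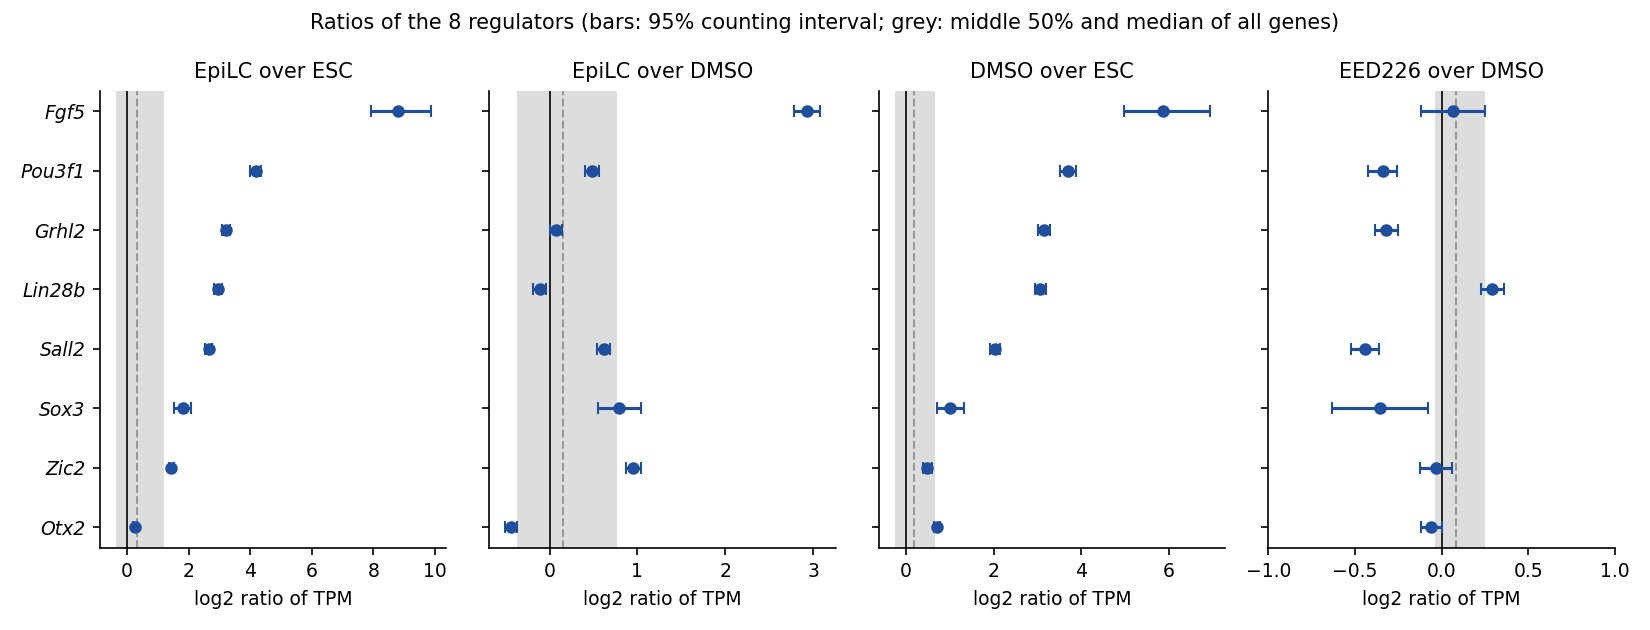
Ratios of TPM for the 8 regulators in EpiLC over ESC, EpiLC over DMSO, DMSO over ESC and EED226 over DMSO, on a log2 axis with 95% counting intervals; the grey band and dashed line are the interquartile range and the median of all genes with at least 1 TPM in either library. *Fgf5* is the far point in the first 3 panels, and in the fourth no gene is past 1.5-fold.

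The comparison of EED226 with DMSO asks which genes respond to inhibition of PRC2. None of the 8 genes passed 1.5-fold, the limit used for it, while 5.26% of 12763 genes passed it upwards and 1.02% downwards. With median-of-ratios scaling these shares were 3.34% and 1.49%. By counting error alone, the intervals of 4 genes lay below 1 and that of 1 gene above 1, and among all genes these shares were 12.9% and 40.3%. *Sall2* (0.736, 0.695 to 0.780), *Sox3* (0.781, 0.645 to 0.946), *Pou3f1* (0.790, 0.746 to 0.836) and *Grhl2* (0.802, 0.765 to 0.840) were the lower ones. After adding 0.1 TPM, 96.8% to 98.2% of genes had higher log2 ratios than these 4. *Lin28b* was the higher one at 1.23 (1.17 to 1.28). The levels of *Fgf5* (1.05, 0.920 to 1.19), *Zic2* (0.978) and *Otx2* (0.959) with EED226 and DMSO were not told apart by counting error, and the sign of each of these 3 log2 ratios changed with the scaling. The median log2 ratio of the 8 genes was -0.19, against 0.085 over all genes.

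Related lists were read against the same limit, which 5.26% of all genes passed upwards and 1.02% downwards. The median log2 ratio over all genes was 0.085. None of the 22 other formative or primed genes passed 1.5-fold. Their median log2 ratio was -0.04, or -0.02 over the 21 with at least 1 TPM in either library. Of the GRHL2 targets, 1 of 16, the splicing regulator *Esrp2* (29.3 TPM with EED226 and 18.5 TPM with DMSO) passed it. Of the let-7 targets, 1 of 10, the chromatin protein *Hmga2* (32.8 TPM with EED226 and 17.3 TPM with DMSO), did. The medians of these lists were 0.18 and 0.10.

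**Figure D4:**
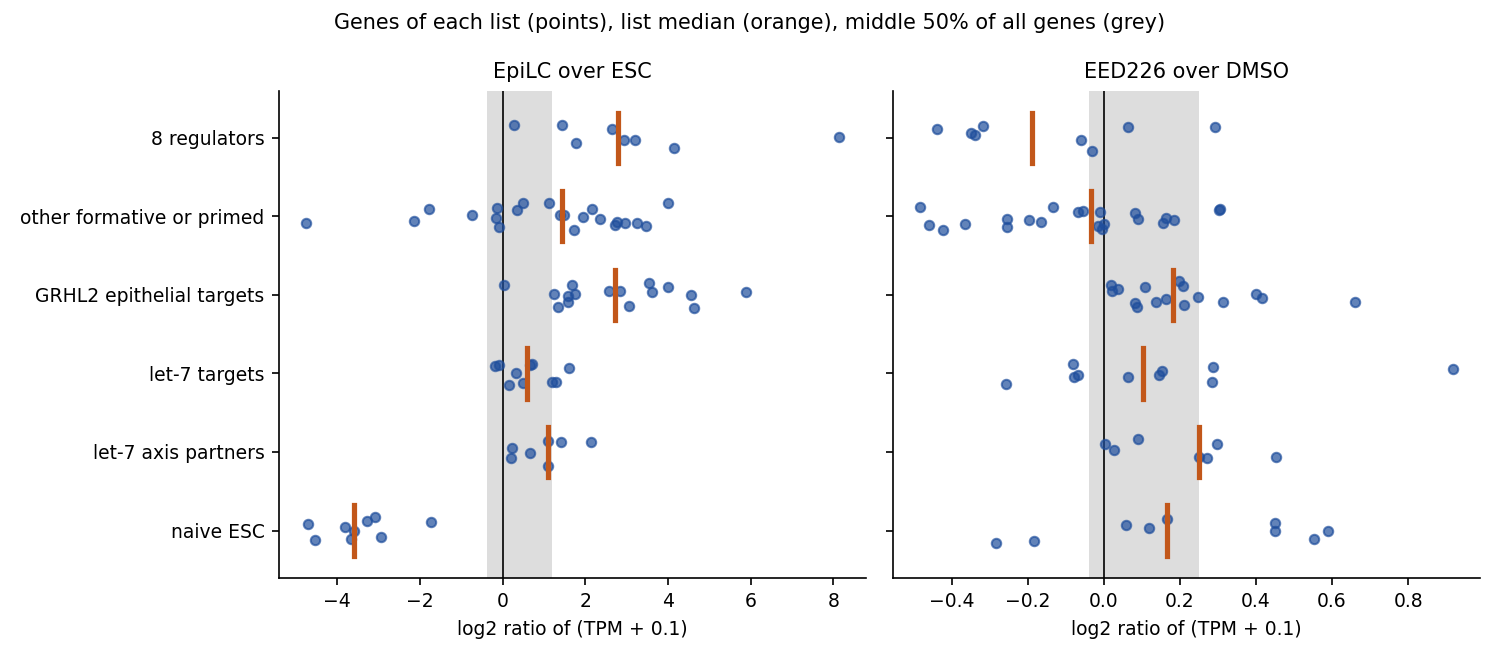
Log2 ratios of TPM after adding 0.1 TPM for the genes of each list (points) and the list's median (orange bar), in EpiLC over ESC and EED226 over DMSO, with the interquartile range of all genes with at least 1 TPM in either library in grey. In EpiLC over ESC the medians were 2.78 for the 8 regulators and 2.71 for the GRHL2 targets, and in EED226 over DMSO they were -0.19 and 0.18.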

How the data were processed

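RNA was purified with DNase treatment, used for strand-specific libraries of polyadenylated RNA and read as single reads of 100 bases. Build mm10 and the tools STAR 2.6.0a, Bowtie2 2.2.4, featureCounts 1.6.2 and bcl2fastq 2.20 appear in the submitters' processing notes. Whether counting used strand is not stated. The authors deposited counts of reads per gene, a length-scaled read signal, and TPM, which both recomputed from the counts and lengths without a difference beyond rounding. Of the entries, 2 that share 1 symbol were left out, and 0 columns belonged to other samples.

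Ratios of TPM carry exact binomial 95% intervals computed from how a gene's reads divide over 2 libraries. Log2 ratios were taken after adding 0.1 TPM. A gene was called at 2-fold, or at 1.5-fold for EED226 over DMSO, and shares over all genes used genes reaching 1 TPM in at least 1 of the libraries compared. With 1 library per condition no test between conditions was run. Named genes were the 8 members, their paralogs, the extremes and a few further genes of each list, and the 2 genes nearest each member in profile. *Gapdh*, *Lum* and *Otx2os1* were named for scaling, cell type and overlap. Some genes under this rule are not reported here. The members, lists and rule were chosen with earlier results of these data known. Gene positions and overlaps came from GENCODE annotation of GRCm38. Alternatives covered the added TPM, filters, scaling, gene length, counting error and the DMSO library in place of ESCs. Work was done in Python 3.11.15 with pandas 2.3.3, numpy 2.4.6, matplotlib 3.10.9 and scipy 1.17.1, and the calculations were tested on simulated data.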

Additional observations from a re-analysis of the deposited data

How the results depend on the processing

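No paired analysis was possible because each condition has 1 library. The count of 7 members at least 2-fold higher in EpiLC over ESC was 7 or 8 under the other settings of added TPM, filter, scaling, length and counting error, and was 8 relative to *Gapdh*, where *Otx2* passed the limit. With the DMSO library in place of the ESC library, an alternative chosen after seeing the data, the count was 1, and the log2 ratios of *Otx2* and *Lin28b* turned to -0.44 and -0.11. *Otx2* also turned, to -0.098, with median-of-ratios scaling. In EED226 over DMSO the count of 0 became 1 with the trend of gene length removed (*Sall2*, lower) and 5 where a counting interval without 1 made the call. In DMSO over ESC the count of 5 became 8 under that call. It also rose relative to *Gapdh* and with a limit of 1.5-fold, where *Sox3* and *Otx2* passed as well. With 0.01 TPM added instead of 0.1, *Sox3* passed as well. Scaling shifted every EpiLC over ESC log2 ratio by -0.23 (centring), -0.37 (median of ratios) or 0.92 (*Gapdh*). Of all genes, 2.63% passed 1.5-fold upwards and 0.288% downwards in EED226 over DMSO (5.26% and 1.02% with 1 TPM required) with at least 5 TPM required in either library, and 2.83% passed it downwards with no filter. Over the 128 values of single members, 39 stayed within their counting interval and the rest moved outside it. The 3 sign changes above concern ratios whose interval excluded 1. In EED226 over DMSO, where their intervals held 1, *Otx2* (0.037) and *Zic2* (0.064) also changed sign relative to *Gapdh*, and *Fgf5* did so with centring (-0.012), median-of-ratios scaling (-0.036) and the length trend removed (-0.0038). Depth limits *Fgf5* in ESCs (10 reads) and *Sox3* most. Spread between cultures is unknown for every gene.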

Other observations

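Genes whose profile over the 4 libraries was nearest to a member were found by the distance between log2(TPM + 0.1) values centred on their mean, among 11048 genes with at least 5 TPM in 1 library or more. Over 4 libraries such likeness is a description only. Nearest to *Fgf5* was *Car4*, a membrane-anchored carbonic anhydrase, at a distance of 0.44, with 223 TPM in EpiLCs, 0.425 TPM in ESCs, 22.6 TPM with EED226 and 23.1 TPM with DMSO. The next was *2610528J11Rik* at 0.49. Nearest to *Grhl2* were the selenium carrier *Sepp1* (0.24) and the kinase *Pim2* (0.27), and *Pim2* had 155 TPM in EpiLCs, 20.0 TPM in ESCs, 139 TPM with EED226 and 191 TPM with DMSO. Nearest to *Lin28b* were the translation factor *Eif4g3* (0.12) and the transcription factor *Myb* (0.13), and *Myb* had 7.39 TPM in EpiLCs, 1.00 TPM in ESCs, 9.97 TPM with EED226 and 8.15 TPM with DMSO.

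For *Pou3f1* they were *9430069I07Rik* (0.23) and *Mgst1* (0.24), for *Sall2* *Agpat4* (0.14) and *Zer1* (0.23), and for *Sox3* *Abhd11os* (0.11) and *Mettl20* (0.18). For *Zic2* they were *Ypel3* (0.080) and *Ube2b* (0.085), and the nearest to *Otx2* was *Utp14a* (0.031). With 1 TPM added instead of 0.1, 8 of the 16 genes found remained among the nearest, namely *Car4*, *2610528J11Rik*, *Utp14a*, *Ypel3*, *Ube2b*, *Abhd11os*, *Mettl20* and *Agpat4*, and those named for *Pou3f1*, *Grhl2* and *Lin28b* did not. Among the members themselves, *Zic2* and *Sox3* were nearest to each other (0.37), followed by *Grhl2* and *Lin28b* (0.59) and *Pou3f1* and *Grhl2* (0.67), and *Fgf5* and *Otx2* were farthest apart (5.60).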
